A study of Mus musculus with 9 samples.

Results

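Contractile proteins assemble around actin into the fibres with which smooth muscle cells and activated fibroblasts pull on their surroundings. Described here are 10 genes of that apparatus, Acta2, Tagln, Tagln2, Cnn1, Cnn2, Myl9, Tpm1, Tpm2, Cald1 and Actn1. They were chosen by gene symbol, and all 10 were found among the 56953 genes of the deposited table, each on 1 line. The cells were primary cardiac fibroblasts of wildtype adult male C57BL/6N mice, which were infected with an adenovirus and harvested 72 h later. Ad-JP2 carried junctophilin-2, a protein best known from heart muscle, where it holds the calcium store close to the surface membrane, Ad-shJP2 carried a hairpin RNA against it, and the control Ad-GFP carried a fluorescent protein. There were 3 RNA sequencing libraries in each of the groups labelled Ad-JP2, Ad-shJP2 and Ad-GFP, so every group had received a virus, and the control virus is not described as carrying a hairpin. The labels do not say whether the libraries of a group came from separate cultures or animals, so the p-values measure the spread between these libraries, which may be technical.

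Smooth muscle actin (Acta2) forms the thin filament, and tropomyosins (Tpm1, Tpm2) lie along it. Calponins (Cnn1, Cnn2), transgelins (Tagln, Tagln2) and caldesmon (Cald1) bind that filament, and caldesmon and calponin can restrain the myosin motor. Myl9 encodes the regulatory light chain of myosin, whose phosphorylation switches contraction on in smooth muscle, and Actn1 encodes an alpha-actinin that crosslinks filaments at adhesions. In the heart, fibroblasts that gain Acta2 after injury are called myofibroblasts, and many of these genes are known targets of serum response factor, which binds a promoter sequence called the CArG box.

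Promoters of 9 of the 10 genes were matched by symbol in a RefSeq table of the build GRCm38.p6, with 2 starts for Cald1. The 250 bases before the start are shown for the 3 genes in which a CArG box was found and for Cald1, the member with the largest differences, which has none there. Capitals mark a CArG box, either exact or with 1 G or C among its 6 inner letters, and sequences run on the gene's strand.
Acta2: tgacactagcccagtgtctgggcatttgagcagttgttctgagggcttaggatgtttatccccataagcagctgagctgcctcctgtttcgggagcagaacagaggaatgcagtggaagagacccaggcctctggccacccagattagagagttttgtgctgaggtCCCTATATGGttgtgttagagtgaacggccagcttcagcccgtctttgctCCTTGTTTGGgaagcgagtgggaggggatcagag
Cnn2: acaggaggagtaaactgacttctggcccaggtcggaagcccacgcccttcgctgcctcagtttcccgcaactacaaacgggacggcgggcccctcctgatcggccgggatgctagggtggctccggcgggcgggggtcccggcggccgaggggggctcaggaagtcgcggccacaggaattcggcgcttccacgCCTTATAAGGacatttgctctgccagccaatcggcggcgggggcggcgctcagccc
Myl9: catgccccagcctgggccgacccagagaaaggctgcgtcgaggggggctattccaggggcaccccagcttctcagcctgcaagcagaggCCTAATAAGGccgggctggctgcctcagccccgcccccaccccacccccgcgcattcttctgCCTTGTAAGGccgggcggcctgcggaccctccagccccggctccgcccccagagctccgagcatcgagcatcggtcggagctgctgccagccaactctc
Cald1, first start: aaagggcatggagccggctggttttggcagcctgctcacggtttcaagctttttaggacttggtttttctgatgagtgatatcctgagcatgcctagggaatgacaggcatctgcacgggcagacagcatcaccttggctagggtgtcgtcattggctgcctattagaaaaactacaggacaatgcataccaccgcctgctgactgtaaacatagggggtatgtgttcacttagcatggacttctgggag
Cald1, second start: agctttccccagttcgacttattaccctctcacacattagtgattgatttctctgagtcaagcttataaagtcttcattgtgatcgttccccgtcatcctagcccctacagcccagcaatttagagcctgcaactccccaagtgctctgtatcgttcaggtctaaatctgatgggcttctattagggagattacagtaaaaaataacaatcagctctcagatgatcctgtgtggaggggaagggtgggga
The Acta2 window was chr19:34255374-34255623 on the minus strand, and those on the plus strand were chr10:79988350-79988599 for Cnn2, chr2:156775214-156775463 for Myl9, and chr6:34598254-34598503 and chr6:34709194-34709443 for Cald1. Acta2 held 2 boxes with 1 such letter, beginning 84 and 34 bases before the start. Cnn2 held 1 exact box 56 bases before the start, and Myl9 held an exact box at 161 bases and a looser one at 99. Exact boxes were found in 1.47% of the 32851 windows of the table and either kind in 8.59%, the motif reading alike on both strands and the exact and looser kinds never sharing a site. The windows of Tagln2, Cnn1, Tpm1, Tpm2, Cald1 and Actn1 held neither kind, which says only that these letters are not in these windows.

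Levels were the deposited TPM, transcript abundances scaled by transcript length and by library, so that genes can be set beside each other. Depth, estimated from the steps of low values, was 36.7 to 41.8 M reads in Ad-JP2, 21.3 to 33.2 M in Ad-shJP2 and 39.9 to 45.7 M in Ad-GFP. The number of genes at 1 TPM or more was 13076 to 13931 per library. Jph2 itself stood at 737, 691 and 637 TPM in Ad-JP2, at 116.5, 123 and 119 in Ad-shJP2 and at 132, 128 and 128 in Ad-GFP. All libraries of Ad-shJP2 and Ad-GFP were below those of Ad-JP2. The difference between Ad-shJP2 and Ad-GFP did not pass with the deposited values (log2 difference -0.11, limma adjusted p = 0.072), where the median of all genes was also -0.11. It passed after a correction for GC content and length (-0.22, limma adjusted p = 0.0012), where that median was -0.10. With median-of-ratios scaling of the libraries it was 0.0005 (limma adjusted p = 0.99), beside a median of -0.02. The hairpin libraries are named by their label. All 10 fibroblast markers were high enough to be tested, Lum only just, at a mean of 1.07 TPM over all libraries. Of 11 pericyte and smooth muscle markers, 4 (Rgs5, Cspg4, Kcnj8 and Abcc9) stayed at or below 0.286 TPM in every library. The other 7 were tested, with means in Ad-GFP from 3.04 TPM (Des) to 86.3 TPM (Actg2). Macrophage and leukocyte markers summed to 2489 to 2530.2 TPM in Ad-JP2, 3158 to 3208 in Ad-shJP2 and 2705 to 2744 in Ad-GFP.

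Together the 10 genes held between 2.20% and 2.56% of all TPM in each library. Their TPM summed to 22183 ± 199 in Ad-JP2, 25444 ± 247 in Ad-shJP2 and 22372 ± 92.7 in Ad-GFP (SD, n = 3 each), which is 2.22%, 2.54% and 2.24% of all TPM. The sum was 1.14 times as high in Ad-shJP2 as in Ad-GFP, without overlap of the libraries, and in Ad-JP2 it was 0.992 times that of Ad-GFP. Exact two-sided permutation tests gave p = 0.1 and p = 0.2 for these comparisons, where 0.1 is the smallest p that 3 against 3 libraries allow. Acta2 was the most abundant gene of all 9 libraries and made up much of the sum, and the other 9 genes were 1.06 times as high in Ad-shJP2 as in Ad-GFP. The order of levels in Ad-GFP was Acta2, Tagln, Myl9, Tpm2, Tpm1, Tagln2, Actn1, Cnn2, Cald1 and Cnn1, and no neighbours in it overlapped. In Ad-JP2 the order of the 10 genes was the same, with Tpm2 and Tpm1 overlapping there. In Ad-shJP2 Cnn2 stood above Actn1 and Cnn1 above Cald1, the rest keeping their places.

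**Figure D1:**
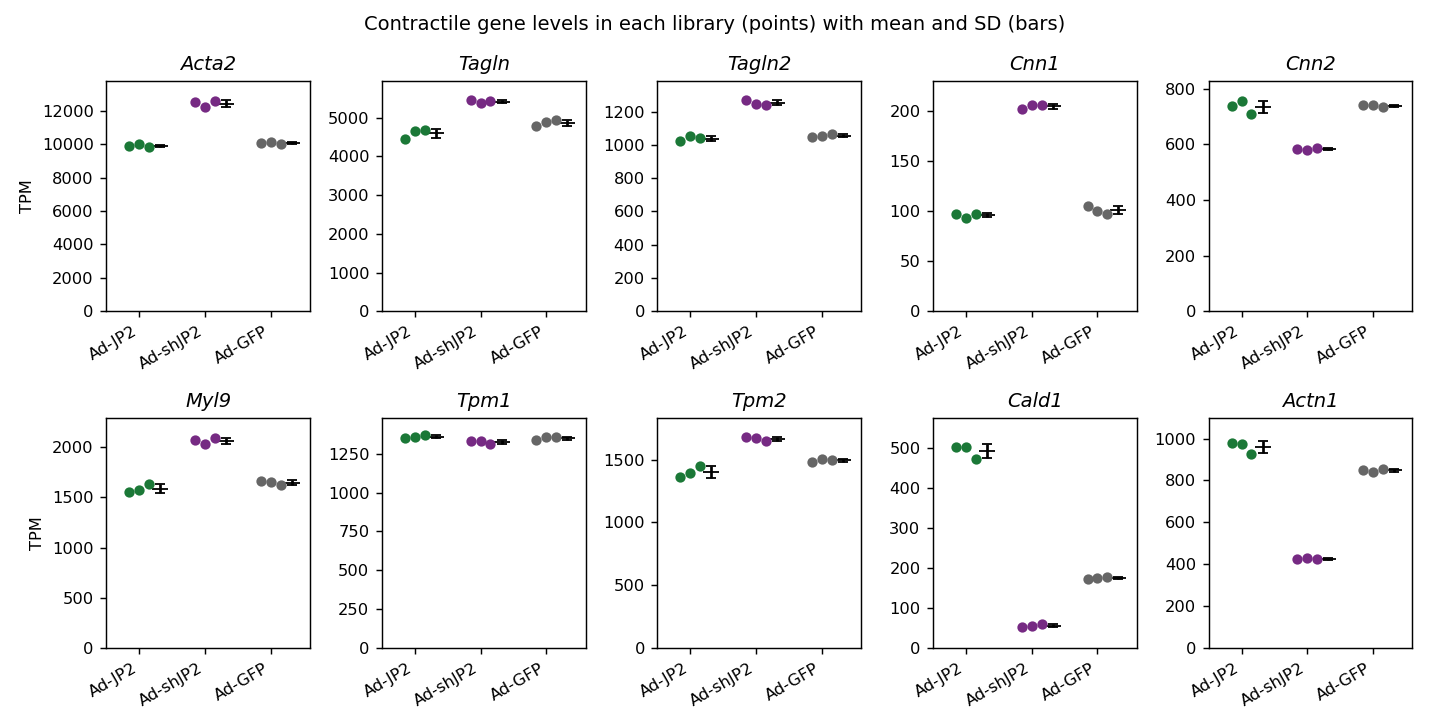
TPM of the 10 contractile genes (vertical axes from 0) in the libraries of Ad-JP2, Ad-shJP2 and Ad-GFP, with points for libraries and bars for the mean and SD. Acta2, Tagln, Tagln2, Cnn1, Myl9 and Tpm2 are highest in Ad-shJP2, while Cald1, Actn1 and Cnn2 are lowest there and Cald1 is highest in Ad-JP2.

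The comparison of Ad-shJP2 with Ad-GFP divided the 10 genes. Acta2, Tagln, Tagln2, Cnn1, Myl9 and Tpm2 rose, Cald1, Actn1 and Cnn2 fell, and Tpm1 did not pass. Cnn1 rose most, to 2.03 times its level in Ad-GFP, and Cald1 fell most, to 0.317 times. Each difference below is on the scale log2(TPM + 1) from limma, with p-values adjusted over all 14215 genes tested and a threshold of 0.05. Of all genes tested 59.4% passed, 21.8% higher and 37.7% lower, against 6 higher and 3 lower of the 10. Library values did not overlap for 6 higher and 4 lower of the 10, and for 24.5% of all genes higher and 40.9% lower. With median-of-ratios scaling 4157 genes were higher and 4333 lower, and with quantile normalization 4233 and 3849, beside 3093 and 5353 with the deposited values. With the deposited values the median difference of the 10 genes was 0.15 and that of all genes -0.11.

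Acta2 had 12529, 12232 and 12582 TPM in Ad-shJP2, against 10101.5, 10155 and 10026 in Ad-GFP. All 3 hairpin libraries were above all GFP libraries, by 0.30 on the log2 scale (SE 0.015, limma adjusted p = 3.6e-07). In a bulk sample a change in the number of cells that express a gene and a change in message per cell cannot be told apart, and the macrophage and leukocyte markers given above also differed between these groups. Of those 8 markers 5 were higher and 2 lower in Ad-shJP2, while of all genes tested 21.8% were higher and 37.7% lower. Ptprc, among the 8, had means of 0.240 TPM in Ad-shJP2 and 0.592 TPM in Ad-GFP, and reached 1 TPM only in Ad-JP2. Of 10 fibroblast markers 9 were lower and 1 higher, summing to 7490.2 to 7726 TPM in Ad-shJP2 and 11334 to 11440.5 in Ad-GFP. Vim held most of the fibroblast sum (means of 5022 TPM in Ad-shJP2 and 7263 in Ad-GFP). Lyz2 held most of the macrophage and leukocyte sum (2023 and 1730 TPM). Pericyte and smooth muscle markers summed to 228 to 246 TPM in Ad-shJP2 and 233 to 239 in Ad-GFP, with 3 higher and 3 lower of 7 tested. The part of any of these in the contractile differences was not tested.

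Calponin 1, Cnn1, which is confined mainly to smooth muscle in the adult, had 202, 206 and 206 TPM in Ad-shJP2 and 105, 100.2 and 97.3 in Ad-GFP. The groups were far apart (log2 difference 1.01, SE 0.03, limma adjusted p = 2.6e-08). Its relative Cnn2, found in many non-muscle cells, moved the other way. Cnn2 had 583, 582 and 589 TPM in Ad-shJP2 and 741, 742 and 734 in Ad-GFP, a fall of the hairpin libraries without overlap (log2 difference -0.34, SE 0.02, limma adjusted p = 3e-06). Within a library, Cnn1 over Cnn2 was 0.350 ± 0.0039 in Ad-shJP2 and 0.136 ± 0.0046 in Ad-GFP (SD, n = 3 each). That ratio does not depend on how libraries are scaled, and its 2.56-fold difference had the smallest possible exact permutation p of 0.1.

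Transgelin, Tagln, an actin-binding protein of smooth muscle, had 5456, 5372 and 5423 TPM in Ad-shJP2 and 4781, 4886 and 4935 in Ad-GFP. The hairpin libraries were all higher, by a small margin of 0.15 (SE 0.02, limma adjusted p = 0.00027). Tagln2, its widely expressed relative, had 1269, 1248 and 1241 TPM in Ad-shJP2 and 1047, 1052 and 1067 in Ad-GFP. It rose by 0.25 (SE 0.02, limma adjusted p = 5.4e-06). The pair moved by unequal amounts, with Tagln over Tagln2 at 4.32 ± 0.039 in Ad-shJP2 and 4.61 ± 0.041 in Ad-GFP (SD, n = 3 each; exact permutation p = 0.1).

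Myl9 had 2068, 2031 and 2095 TPM in Ad-shJP2 and 1662, 1656 and 1622 in Ad-GFP, and rose by 0.33 without overlap (SE 0.02, limma adjusted p = 3.2e-06). The tropomyosins parted. Tpm2 had 1679, 1669.9 and 1647 TPM in Ad-shJP2 and 1481, 1506 and 1500.2 in Ad-GFP, higher by 0.16 (SE 0.02, limma adjusted p = 0.00047). Tpm1 had 1331, 1334 and 1314 TPM in Ad-shJP2 and 1339.9, 1355 and 1358 in Ad-GFP, a difference of -0.03 that did not pass (95% confidence interval -0.06 to 0.01, limma adjusted p = 0.18). The Tpm1 libraries did not overlap all the same, as was the case for 65.3% of all genes. Tpm2 over Tpm1 was 1.26 ± 0.0051 in Ad-shJP2 and 1.11 ± 0.0038 in Ad-GFP (SD, n = 3 each; exact permutation p = 0.1).

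Caldesmon, Cald1, had 52.6, 53.8 and 59.7 TPM in Ad-shJP2 and 173, 175 and 176 in Ad-GFP. Every hairpin library was under every GFP library, and the mean was 3.15 times lower (log2 difference -1.64, SE 0.05, limma adjusted p = 1.2e-08). The alpha-actinin Actn1 had 423, 431 and 423 TPM in Ad-shJP2 and 850.2, 840.3 and 854 in Ad-GFP. It fell by 0.99 on the log2 scale (SE 0.02, limma adjusted p = 5.9e-09), with libraries of a group lying close together. Values are per gene, so transcripts from the 2 starts of Cald1, or the spliced forms of Tpm1, Tpm2 and Actn1, cannot be told apart.

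In Ad-JP2 against Ad-GFP, Cald1 and Actn1 rose, Tagln and Tpm2 fell slightly, and Acta2, Cnn1, Cnn2, Tagln2, Myl9 and Tpm1 did not pass. Over all genes 13.4% were called higher and 1.64% lower, 15% in all, beside 2 higher and 2 lower of the 10. The median difference of the 10 was -0.02 and that of all genes 0.01. With quantile normalization 1462 genes were higher and 748 lower, and with GC content and length correction 946 and 524, beside 1902 and 233 with the deposited values.

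Cald1 had 502, 502 and 472 TPM in Ad-JP2 and 173, 175 and 176 in Ad-GFP. The mean of the JP2 libraries was 2.82 times that of the GFP libraries (log2 difference 1.49, SE 0.05, limma adjusted p = 6.1e-07), and the groups lay far apart. Differences of at least 1 on the log2 scale, in either direction, were found for 2.40% of all genes in this comparison. Actn1 had 979, 975 and 927 TPM in Ad-JP2 and 850.2, 840.3 and 854 in Ad-GFP, a rise of 0.18 without overlap (SE 0.02, limma adjusted p = 0.00095).

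Acta2 had 9912, 9994 and 9844 TPM in Ad-JP2, against 10101.5, 10155 and 10026 in Ad-GFP. The JP2 libraries were all slightly lower, and the difference of -0.03 did not pass (95% confidence interval -0.06 to 0.01, limma adjusted p = 0.36). Cnn1 had 96.5, 93.2 and 96.8 TPM in Ad-JP2 and 105, 100.2 and 97.3 in Ad-GFP, again lower in every JP2 library without passing (log2 difference -0.08, limma adjusted p = 0.18). Library values did not overlap for 2 higher and 4 lower of the 10 genes, while 22.4% of all genes were separated with higher and 9.74% with lower values (32.2% in all).

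Tagln had 4454, 4663 and 4672 TPM in Ad-JP2 and 4781, 4886 and 4935 in Ad-GFP (log2 difference -0.08, SE 0.02, limma adjusted p = 0.034). Tpm2 had 1361, 1391 and 1451 TPM in Ad-JP2 and 1481, 1506 and 1500.2 in Ad-GFP (log2 difference -0.09, SE 0.02, limma adjusted p = 0.029). Both falls were near the threshold. Neither gene passed without the low-value filter, with Ad-JP2 and Ad-GFP fitted alone or without Ad-JP2 replicate 1, Ad-JP2 replicate 2, Ad-GFP replicate 2 or Ad-GFP replicate 3, and 1 of them passed without Ad-shJP2 replicate 1, Ad-shJP2 replicate 3 or Ad-GFP replicate 1. Without Ad-JP2 replicate 3 there were 3 genes lower in place of 2, Myl9 being added.

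The remaining genes differed little between Ad-JP2 and Ad-GFP. Tagln2 had 1021, 1056 and 1039 TPM in Ad-JP2 and 1047, 1052 and 1067 in Ad-GFP, and the groups overlapped. Myl9 had 1549.7, 1576 and 1634 TPM in Ad-JP2 and 1662, 1656 and 1622 in Ad-GFP, with 1 JP2 library inside the GFP range (log2 difference -0.05, limma adjusted p = 0.19). Cnn2 had 739.8, 755 and 709.6 TPM in Ad-JP2 and 741, 742 and 734 in Ad-GFP, the JP2 libraries lying on both sides. Tpm1 had 1354, 1357 and 1369 TPM in Ad-JP2 and 1339.9, 1355 and 1358 in Ad-GFP, and these overlapped too.

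**Figure D2:**
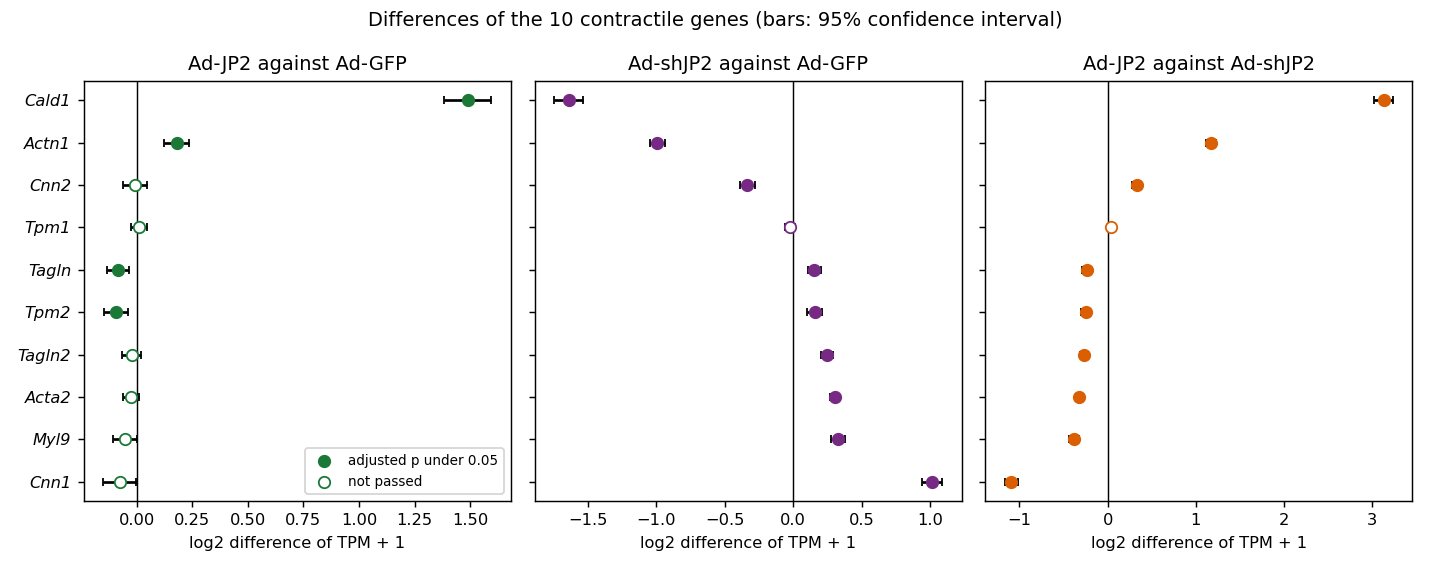
Differences on the scale log2(TPM + 1) of the 10 contractile genes in the 3 comparisons, with 95% confidence intervals from limma; filled points passed adjusted p 0.05 and open points did not. Horizontal scales differ between panels, and Cald1 reaches 1.49, -1.64 and 3.13 in them.

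In Ad-JP2 against Ad-shJP2, Cald1, Actn1 and Cnn2 were higher and Acta2, Tagln, Tagln2, Cnn1, Myl9 and Tpm2 lower, while 40.3% of all genes were called higher and 24.1% lower (64.4% in all). Library values did not overlap for 4 higher and 6 lower of the 10, and for 41.7% of all genes higher and 25.4% lower (67.1% in all). With quantile normalization 4026 genes were higher and 5570 lower, and with median-of-ratios scaling 4735 and 4634, beside 5731 and 3421. The mean of Cald1 in Ad-JP2 was 8.89 times that in Ad-shJP2 (log2 difference 3.13, SE 0.05, limma adjusted p = 2.5e-10). Actn1 was 2.26 times as high (log2 difference 1.17), and Cnn1 stood at 0.467 times its Ad-shJP2 level (log2 difference -1.09). Acta2 was lower by 0.33 and Myl9 by 0.38, and Tpm1 did not pass (log2 difference 0.04, limma adjusted p = 0.072). These libraries also enter the comparisons with Ad-GFP, so the 3 comparisons are not independent of each other. Cald1 over Acta2, a ratio within each library, was 0.0496 ± 0.0015 in Ad-JP2, 0.00445 ± 0.00027 in Ad-shJP2 and 0.0173 ± 0.00023 in Ad-GFP (SD, n = 3 each).

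The 10 genes differ in GC content and length, and so did the shifts of all genes. The 10% of genes with the lowest GC content had a median difference of -0.45 in Ad-shJP2 and 0.35 in Ad-JP2 against Ad-GFP, while the 10% with the highest had medians of 0.02 and -0.02. The longest 10% of genes had medians of -0.42 in Ad-shJP2 and 0.17 in Ad-JP2, and the shortest -0.02 and -0.07. Cald1 has the lowest GC content of the 10, 47.6%, and with Actn1 and Cnn2 it forms the longest 3, at 3114, 3430 and 2273 bases in the deposited lengths. Genes in the 10% class of GC content that holds Cald1 had medians of -0.17 in Ad-shJP2 and 0.03 in Ad-JP2, and those in the length class of Cald1 and Actn1 had -0.22 and 0.05. The 3 genes that fell in Ad-shJP2 are therefore the longest 3, and the 6 that rose measure 1742 bases or less.

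**Figure D3:**
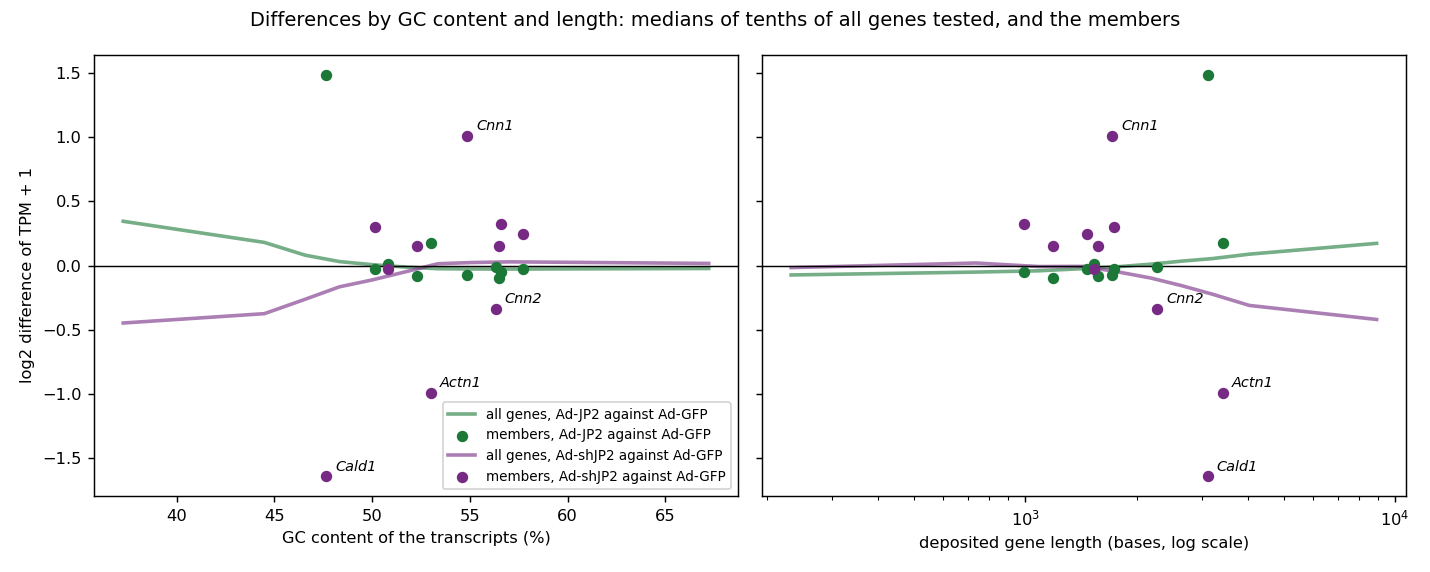
Median log2 difference of all genes tested, in classes of 10% of the genes by transcript GC content (percent) and by deposited length (bases, log axis), as lines for Ad-JP2 and Ad-shJP2 against Ad-GFP, with the 10 contractile genes as points. Cald1 and Actn1 in Ad-shJP2 lie below the line, at -1.64 and -0.99, and Cnn1 lies above it, at 1.01.

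GC content and length were then corrected for within each library, with the library's median kept. In Ad-shJP2 against Ad-GFP, where the median of all genes was -0.10 after the correction, Cald1 stood at -1.37, Actn1 at -0.99, Cnn2 at -0.50 and Cnn1 at 0.83, and all of these passed. Acta2 passed at 0.20, Myl9 at 0.14 and Tagln2 at 0.07. The rises of Tagln and Tpm2 did not hold, at -0.01 (limma adjusted p = 0.68) and -0.03 (limma adjusted p = 0.29), and Tpm1 passed as lower at -0.17 (limma adjusted p = 3.5e-05). In Ad-JP2 against Ad-GFP the corrected difference of Cald1 was 1.33 and that of Actn1 0.18, both passing. Tagln and Tpm2 no longer passed there (-0.01 and 0.01), and Tpm1 passed as higher at 0.07 (limma adjusted p = 0.033), a call lost with a replicate block added (limma adjusted p = 0.077). After correction Ad-JP2 was lower than Ad-shJP2 in Acta2 (-0.19), Cnn1 (-0.83) and Myl9 (-0.08), while Tagln, Tagln2 and Tpm2 did not pass. Tpm1 passed as higher in that comparison, at 0.24 (limma adjusted p = 3.1e-06).

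**Figure D4:**
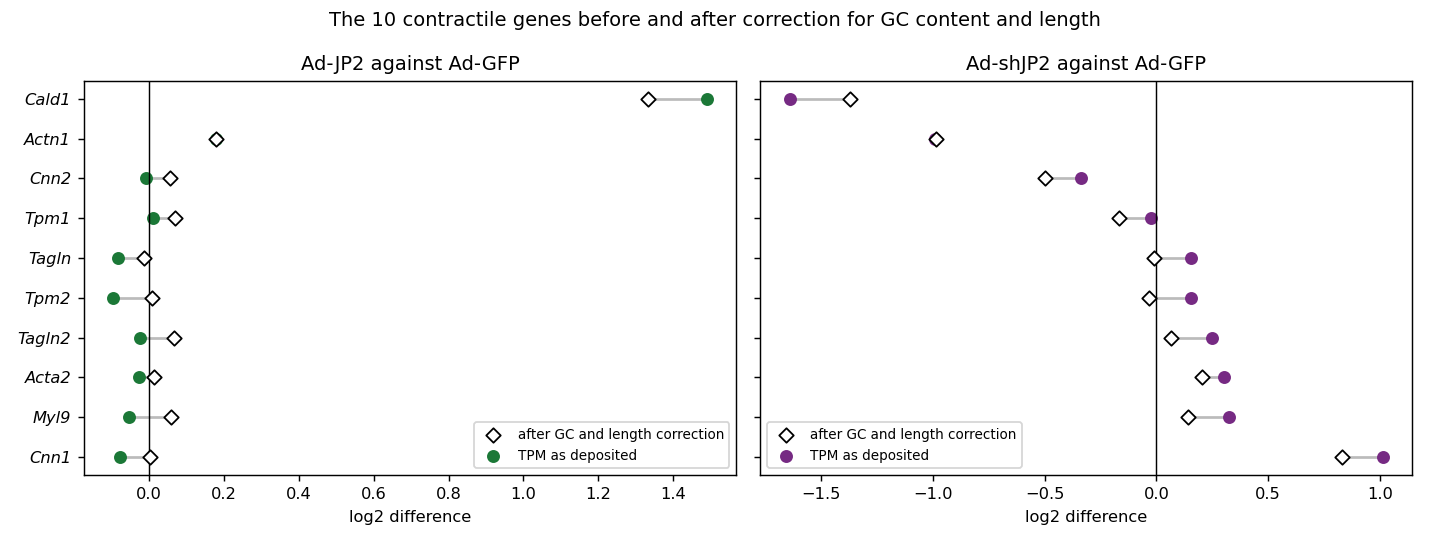
Log2 differences of the 10 contractile genes with TPM as deposited (filled circles) and after correction for GC content and length (open diamonds), for Ad-JP2 and Ad-shJP2 against Ad-GFP. Cald1 moves to 1.33 and -1.37, while Tagln and Tpm2 come close to 0 in both panels.

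Relatives of the 10 genes were examined next, from a list of other actins, transgelins, calponins, light chains, tropomyosins and actinins. Of 16 listed, 13 were tested, and 3 were higher and 6 lower in Ad-shJP2 against Ad-GFP, where 21.8% of all genes were higher and 37.7% lower. Their median was -0.11, as was that of all genes. Skeletal actin, Acta1, had a mean 4.75 times that of Ad-GFP (40.9 TPM in Ad-shJP2 and 8.60 TPM in Ad-GFP, log2 difference 2.13, limma adjusted p = 4.3e-08). Reads of the near-identical actin coding sequences may be shared with Acta2, and the part of such sharing was not tested. Within a library, Acta1 over Acta2 was 0.00329 ± 0.00014 in Ad-shJP2 and 0.00085 ± 0.000095 in Ad-GFP (SD, n = 3 each). Tpm4, a cytoplasmic tropomyosin, and the light chain gene Myl12b fell by 0.61 and 0.76 in Ad-shJP2. In Ad-JP2 against Ad-GFP, where 13.4% of all genes were higher and 1.64% lower, 2 relatives were higher and 1 lower, namely Tpm4 (0.12), the other nonmuscle actinin Actn4 (0.11) and Myl12b (-0.20), with a median of -0.01. The call of Myl12b there was lost after GC and length correction. Among relatives with a mean of at least 5 TPM, Acta1, Tpm4 and Actn4 differed most between Ad-JP2 and Ad-shJP2, at -2.05, 0.72 and 0.62. Actn1 over Actn4 was 1.73 ± 0.021 in Ad-JP2, 1.18 ± 0.013 in Ad-shJP2 and 1.65 ± 0.025 in Ad-GFP (SD, n = 3 each).

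Other smooth muscle contractile genes also went both ways in Ad-shJP2 against Ad-GFP, with 6 higher and 5 lower of 13 tested and a median of 0.02. Of all genes tested, 21.8% were higher and 37.7% lower there, with a median of -0.11. Smoothelin, Smtn, a cytoskeletal protein of contractile smooth muscle, rose by 0.79, while Ppp1r12b, a regulatory subunit of myosin phosphatase, fell by 0.37, a call lost after correction. Between Ad-JP2 and Ad-shJP2, Smtn was lower by 0.78. Smooth muscle myosin heavy chain, Myh11, was higher by 0.46 (6.25 TPM in Ad-JP2 and 4.29 TPM in Ad-shJP2), a call lost after GC and length correction.

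Stress fibres are the contractile actin bundles of cultured cells. Of 12 stress fibre genes tested, 10 were lower and 2 higher in Ad-shJP2 against Ad-GFP, with a median of -0.74, while 37.7% of all genes were lower and 21.8% higher with a median of -0.11. Synpo, which binds actin bundles and alpha-actinin, fell by 1.47, Pdlim5, which binds alpha-actinin, by 1.03 and Lima1, which crosslinks actin filaments, by 1.00. These are long genes, at 3671, 3370 and 3967 bases, and the length classes that hold them had all-gene medians of -0.22 and -0.31. After GC and length correction Synpo stood at -1.57, Pdlim5 at -0.97 and Lima1 at -0.78. In Ad-JP2 against Ad-GFP 4 stress fibre genes were higher (13.4% of all genes) and the others did not pass. The higher ones included Pdlim5 by 0.52, the alpha-actinin partner Palld by 0.46 and the nonmuscle myosin heavy chain Myh10 by 0.43. The median of the list was 0.05 there, and after correction Myh10 no longer passed. Pdlim5, Synpo and Myh10 were higher in Ad-JP2 than in Ad-shJP2 by 1.55, 1.42 and 1.36, the last being 0.82 after correction.

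Among genes that control the contractile set, Srf, which encodes serum response factor, rose in Ad-shJP2 against Ad-GFP by 0.75 (limma adjusted p = 1.5e-07), while the coactivator gene Mrtfb fell by 0.64 (4.21 TPM in Ad-shJP2 and 7.07 TPM in Ad-GFP) and Ppp1cb, the catalytic subunit of myosin phosphatase, fell by 1.07. The fall of Mrtfb did not pass after correction, while Srf at 0.59 and Ppp1cb at -0.73 still passed. Myocd, the coactivator of smooth muscle, stayed under 1 TPM in every library. In Ad-JP2 against Ad-GFP Ppp1cb was higher by 0.53 (0.25 after correction, a call lost with a replicate block added) and the small GTPase gene Rhoc lower by 0.08, a fall that was lost after correction. Between Ad-JP2 and Ad-shJP2, Ppp1cb was higher by 1.60 (0.98 after correction) and Srf lower by 0.67 (-0.45 after correction). The 13 protein-coding RNAs of the mitochondrial genome summed to 22540.3 to 24646 TPM in Ad-JP2, 11421 to 12442 in Ad-shJP2 and 18838 to 19175 in Ad-GFP, and their part in these differences was not tested.

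**Figure D5:**
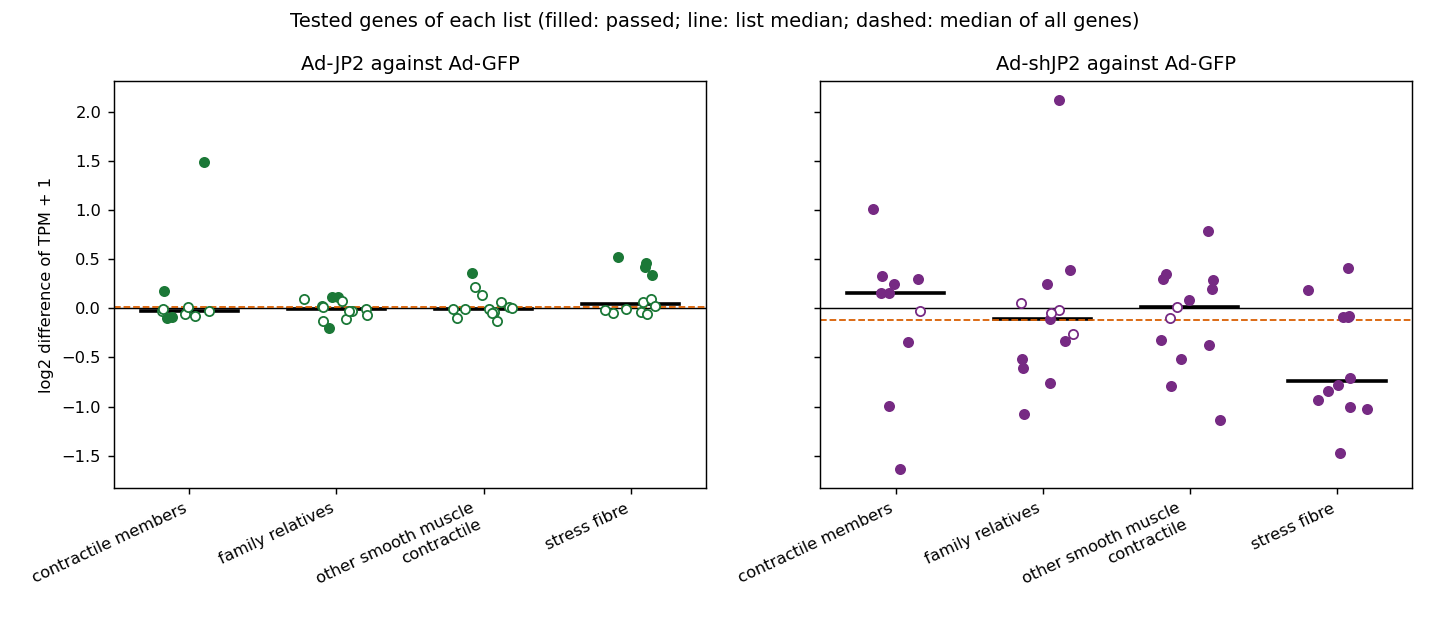
Differences on the scale log2(TPM + 1) for Ad-JP2 and Ad-shJP2 against Ad-GFP, with a point for every tested gene of 4 lists (filled where adjusted p was under 0.05), a line at the list's median and a dashed line at the median of all genes. In Ad-shJP2 the stress fibre median is -0.74, the contractile median 0.15 and the median of all genes -0.11.

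Acta2 and Cald1, the most abundant gene and the gene with the largest differences, had different neighbours in pattern. Likeness was the root mean square difference, over the 9 libraries, of log2(TPM + 1) minus a gene's own mean. Among 8604 other named genes of at least 5 TPM on average, the nearest to Acta2 were Txn2 (0.012), Cnbp (0.015), AI506816 (0.017) and Pole3 (0.017). Of the other contractile genes Myl9 (0.031) and Tagln2 (0.032) came closest to Acta2, at ranks 53 and 59. Nearest to Cald1 were Cavin2 (0.058), Rnf6 (0.11), Hsp90b1 (0.13) and Acadsb (0.13). Likeness was taken without the correction for GC content and length. GC content was 44.4% for Cavin2, 48.0% for Rnf6, 42.7% for Hsp90b1 and 44.3% for Acadsb, beside 47.6% for Cald1. Rnf6 was low in Ad-shJP2, at a mean of 1.29 TPM. Actn1 was the nearest contractile gene to Cald1, at 0.82, and Cnn1 the farthest, at 1.74.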

How the data were processed

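The 9 libraries were made from polyA RNA with a stranded kit, per the labels' protocols. The authors deposited 1 table of TPM per gene with lengths in bases; per the submitters' processing notes, GRCm39, Salmon, DRAGEN and DESeq2 were used, with roles, order, versions and the use of strand not given in the sources used here. Genes with at least 1 TPM in at least 3 libraries were tested (14215). Values were taken as log2(TPM + 1), which understates changes of low genes. One linear model with 3 group means and a mean-variance trend was fitted with limma 3.58.1 in R 4.3.3, with two-sided moderated tests, Benjamini-Hochberg adjustment over all genes and a threshold of 0.05; it was tested on simulated data. Every adjusted p in the text is limma's. Fold ratios are ratios of group mean TPM.

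Depth was estimated from the steps of TPM times effective length. The share of low genes within 0.1 of a whole read was 47.9% to 96.3%, so depths are approximate. Libraries of a group correlated at 0.993 to 0.996, and at most 6 of 12013 genes had identical values in any pair. GC content was the median over a gene's GENCODE M21 transcripts (GRCm38), matched by gene ID for 98.7% of the genes tested. Its correction was a loess fit (span 0.3) on GC content and log length in each library, with the library's median kept. Promoter positions are on GRCm38.p6 and were not converted.

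Members, lists, gene pairs for ratios and tests were chosen with earlier results of these data known. Genes named were the 10 members, Jph2, in each comparison the 3 genes of each list with the largest difference among those that passed at a mean of at least 5 TPM, and the 4 genes most like Acta2 and Cald1. Myocd and markers were named apart from this rule, and some genes and 1 list that it covers are not reported here. The alternatives are given at the end.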

Additional observations from a re-analysis of the deposited data

How the results depend on the processing

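For the 10 contractile genes in Ad-shJP2 against Ad-GFP, 6 higher and 3 lower held in number in each fit that left out 1 library, with a replicate block, with a pseudocount of 0.1 TPM, without the low-value filter, with a mean of at least 5 TPM, with 2 groups only and without the trend; median-of-ratios scaling gave 7 and 3, quantile normalization 5 and 3 (Acta2, the most abundant gene of every library, gets 1 fixed value there and was not assessed), and GC content and length correction 4 and 4. The median of all genes in this comparison, -0.11, became -0.02 under median-of-ratios scaling and 0.02 under quantile normalization, and in Ad-JP2 against Ad-shJP2 0.10 became -0.01 and -0.11. Cald1, Actn1 and Cnn1 passed with the same sign in these 2 comparisons under all alternatives run. In Ad-JP2 against Ad-GFP 2 genes were lower; 0 were with quantile normalization, without the low-value filter, with 2 groups only, without the trend, and with GC content and length correction alone or with the replicate block, 1 was with the replicate block alone, and leaving out 1 library gave 0 to 3. At an unadjusted limma p under 0.05, 4 genes were lower with the deposited values, 5 with median-of-ratios scaling, 2 with quantile normalization, 3 without the low-value filter, 2 with 2 groups only, 1 without the trend and 0 after the correction. Over all genes, 233 lower in Ad-JP2 against Ad-GFP became 399 with median-of-ratios scaling, 393 with correction and block, 100 without the trend and 114 to 283 with 1 library left out, and 1902 higher became 768 with correction and block. In Ad-JP2 against Ad-shJP2, 6 lower became 3 with GC content and length correction, with or without the replicate block. The cause of these changes was not tested.

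Signs turned as follows. With GC content and length correction, and alike with the replicate block added, Ad-JP2 against Ad-GFP became 0.0134 for Acta2, 0.0683 for Tagln2, 0.0029 for Cnn1, 0.0568 for Cnn2, 0.0580 for Myl9, 0.0075 for Tpm2 and 0.0263 for Rhoc. Ad-shJP2 against Ad-GFP became -0.0110 for Tagln and -0.0315 for Tpm2, and Ad-JP2 against Ad-shJP2 0.0009 for Tagln2, 0.0390 for Tpm2 and -0.0825 for Mrtfb. With quantile normalization, Ad-JP2 against Ad-GFP became 0.0348 for Tagln, 0.0085 for Tagln2 and 0.0181 for Cnn2, and leaving out 1 library put Cnn2 between -0.0281 and 0.0167, with the positive value without Ad-JP2 replicate 3. With median-of-ratios scaling, Tpm1 became -0.0098 in Ad-JP2 and 0.0878 in Ad-shJP2 against Ad-GFP (limma adjusted p = 0.0035) and -0.0976 in Ad-JP2 against Ad-shJP2 (limma adjusted p = 0.0016), and Jph2 0.0005 in Ad-shJP2 against Ad-GFP. The summed level of the 10 genes in Ad-shJP2 was 1.23 times that of Ad-GFP under that scaling. In Ad-JP2 against Ad-shJP2, Tpm1 passed as higher with quantile normalization (0.0913, limma adjusted p = 0.00505) and with GC content and length correction (0.2365, limma adjusted p = 3.09e-06). Its calls there thus had opposite signs under different processing.

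The labels do not say whether replicate numbers pair these libraries. Deviations of same-numbered libraries correlated at -0.11 to 0.11 and other pairs at -0.20 to 0.16, which cannot decide it with 3 libraries a group. Apart from Tpm2 in Ad-JP2 against Ad-GFP (limma adjusted p = 0.055) the block changed no call of a contractile gene with the deposited values. Added to the correction, it ended 1 call, that of Tpm1 in Ad-JP2 against Ad-GFP (limma adjusted p = 0.077). With 3 libraries a group, differences under about 0.1 on the log2 scale rest on few values.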
